A study of Mus musculus with 8 samples.

Results

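The 10 genes described here encode the cell surface chains that receive interferons and the Janus kinases. The receptor chains are Ifnar1, Ifnar2, Ifngr1, Ifngr2, Ifnlr1 and Il10rb, and the kinases are Jak1, Jak2, Jak3 and Tyk2. The 10 genes were named as a list out of 21631 protein-coding genes on the autosomes and X chromosome. The sites counted for each gene were the peaks inside it or within 50 kb of its ends. Of 44365 accessible regions shared by both replicates, 95 lay in these windows, which cover 1147 kb. The data are peak lists from ATAC-seq, in which a transposase cuts and tags DNA that is not covered by nucleosomes, in 2 samples of mouse CD8-positive dendritic cells that were cultured and left without stimulation. One label gives spleen as the source and another calls the same samples a line. No genotype, mouse strain or age is given, and nothing says that the replicates came from separate cultures, so their difference may be technical. The names of their 2 peak lists also differ in a tag whose meaning is not given. The other 6 samples of the series, chromatin immunoprecipitations of IRF3, IRF5 and IRF9 after 90 min of stimulation with poly(I:C), CpG or interferon-beta, were not analysed here.

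Interferons signal through paired receptor chains. Type I interferons bind IFNAR1 and IFNAR2, interferon-gamma binds IFNGR1 and IFNGR2, and type III interferons bind IFNLR1 together with IL10RB, a chain that also serves the receptors of IL-10 and IL-22. Each chain holds a Janus kinase on its cytoplasmic tail: JAK1 sits on IFNAR2, IFNGR1 and IFNLR1, TYK2 on IFNAR1 and IL10RB, and JAK2 on IFNGR2, whereas JAK3 serves the common gamma chain of the receptors of IL-2 and its relatives. The activated kinases phosphorylate STAT proteins, which then enter the nucleus and act on interferon-stimulated genes.

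Replicate 1 listed 50950 peaks and replicate 2 listed 58319, with medians of 17 and 22 reads at the summit. The genome-wide background was 1.89 times as high in replicate 2, and the fewest reads at any listed summit were 7 and 9. Whether a peak is listed depends on the local background as well as on the reads at its summit. A missing peak therefore means only that none was listed at that depth and background. It does not tell a closed site from an open one that was missed. Of the marker genes of cross-presenting dendritic cells, 7 of 13 had a shared region within 1 kb of a start, near the share of all coding genes, 48.3%. Batf3, Itgae, Zbtb46, Cd8a, Clec9a and Xcr1 had none there. The counts were 3 of 5 for macrophage and plasmacytoid dendritic cell markers, 1 of 5 for T cell and B cell markers, and 0 of 5 for neutrophil and NK cell markers. Among the markers counted with a region, Cadm1, Csf1r, Tcf4 and Ms4a1 had no listed start, so a region at either end of the gene counted. These counts do not tell the labelled cell type from macrophages or plasmacytoid dendritic cells. What part cells of other types have in the peaks described here was not tested.

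All 10 genes had a shared accessible region within 1 kb of their start. Over all coding genes 48.3% had one. For Il10rb no start was given in the sequence table used, so either end of the gene counted; for the other 9 genes, all with a region, the matching share of coding genes with a listed start was 49.3%. With the better-scoring 50% of each peak list, 6 of the 10 kept a start region, against 35.5% of coding genes; Ifnar2, Il10rb, Ifngr2 and Jak3 did not. When sharing asked for 50% of each peak to be covered by the other, Jak2 had none and 9 of 10 remained, against 44.7% of coding genes.

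The authors' fold enrichment divides the summit's reads by those of the local background, with 1 added to each. It ranged from 5.35 to 10.0 in replicate 1 and from 4.99 to 12.2 in replicate 2 over the highest scoring start region of each gene. The medians of the 10 genes were 7.26 and 9.26. Those of all coding genes with a start region were 8.11 and 8.44. Replicate 2 had the higher fold enrichment at 8 of the 10 starts, the exceptions being Jak2 and Jak3. It also had the higher value at 56 of the 95 shared regions of the windows and at 57.3% of all shared regions. The summits of the replicates lay at most 45 bp apart in each of the 10 regions.

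**Figure D1:**
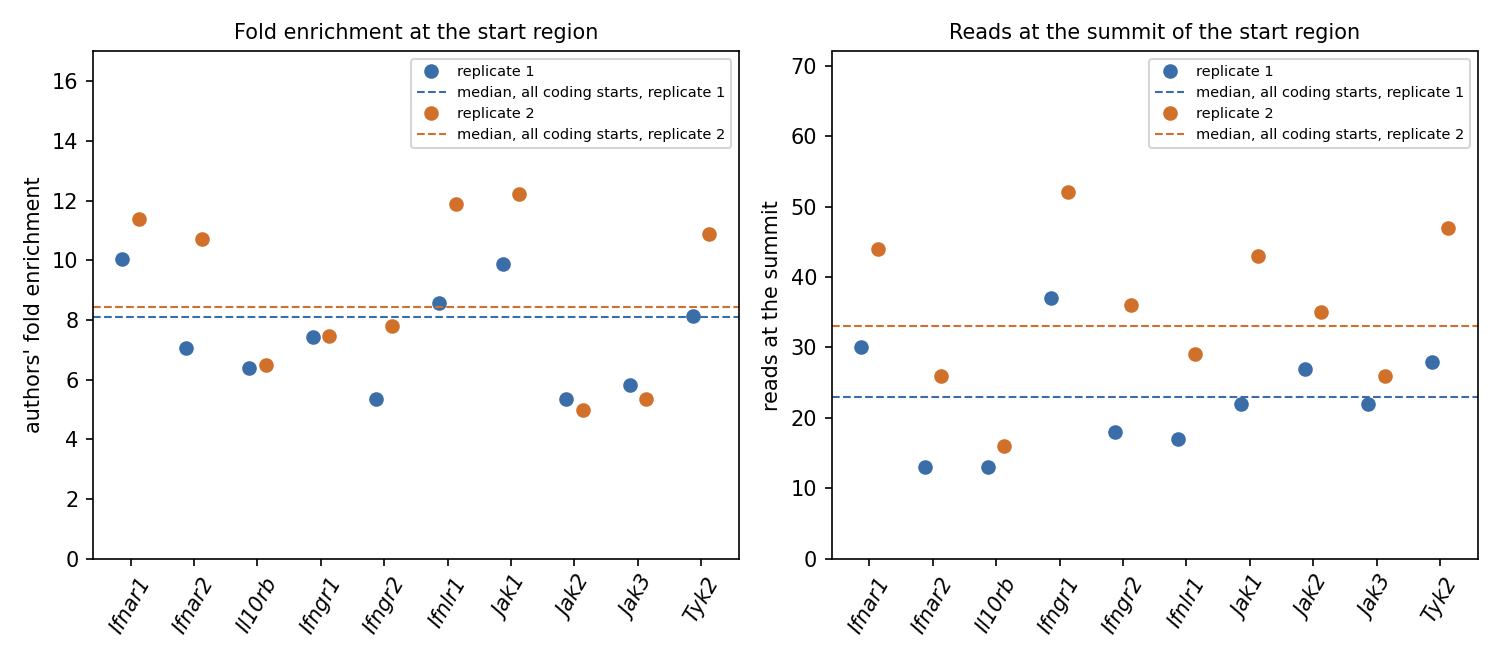
Left, the authors' fold enrichment, and right, the reads at the summit, of the highest scoring shared region within 1 kb of the start of each gene; blue points are replicate 1, orange points replicate 2, and dashed lines are the medians over all coding genes with a start region. Il10rb, Ifngr1, Ifngr2, Jak2 and Jak3 lie below the median of each replicate for fold enrichment, while Ifngr1 has the most reads of the 10 genes in both replicates, 37 and 52.

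The type I receptor genes differed at their starts. Ifnar1 (chr16:91485032-91510523) had a region at chr16:91484889-91485354, 466 bp wide, with fold enrichments of 10.0 and 11.4 in replicates 1 and 2 and 30 and 44 reads at its summits. That region covered the annotated start and had the highest mean rank of the 10 start regions: in the 2 lists its −log10 q, the authors' significance of a peak after correction for multiple tests, ranked on average above 93.3% of peaks. Ifnar2 (chr16:91372783-91405589) had a narrower region of 160 bp, chr16:91372681-91372840, with fold enrichments of 7.07 and 10.7 and 13 and 26 reads. The Ifnar2 summits lay 39 and 15 bp before the start. Its read numbers were above those of 6.9% and 26.9% of coding start regions in replicates 1 and 2, and those of Ifnar1 above 77.6% and 79.5%. In fold enrichment Ifnar2 was above 31.3% and 81.4% of them, and Ifnar1 above 80.9% and 87.4%.

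The bases just before each annotated gene (RefSeq, GRCm38.p6, plus strand, 5′ to 3′) are printed to set the start of one chain of the type I receptor beside that of the other. The Ifnar1 stretch is chr16:91484965-91485031 and lies wholly under the shared region; the Ifnar2 stretch is chr16:91372533-91372782, of which the last 102 bases do. Capitals mark matches to the motifs searched: the ETS letters CCGGAAG in Ifnar1, 231 bp before its listed start, and the interferon-gamma-activated (GAS) pattern TTCNNNGAA in Ifnar2, 214 bp before its start and outside the shared region.
Ifnar1: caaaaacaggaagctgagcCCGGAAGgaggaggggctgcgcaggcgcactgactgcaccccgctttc
Ifnar2: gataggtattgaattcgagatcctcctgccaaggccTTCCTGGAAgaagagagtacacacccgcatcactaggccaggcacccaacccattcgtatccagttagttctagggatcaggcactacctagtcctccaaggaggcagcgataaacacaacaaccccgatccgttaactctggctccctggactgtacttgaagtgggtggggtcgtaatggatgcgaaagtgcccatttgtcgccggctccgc

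Ifnar1 carries CCGGAAG again 147 bp before its listed start, and a GAS match, TTCACGGAA at chr16:91485210-91485218, across its listed start and under the shared region. GAS letters were present in 8.3% of 32851 RefSeq promoters of the same 300 bases (250 before to 50 after a start, both strands searched), and CCGGAAG in 8.86%. In the 9975 coding gene promoters whose start had a shared region within 1 kb, called accessible here, the shares were 6.51% and 20.9%. A match is a description of letters, not of bound protein.

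Il10rb (chr16:91406157-91425834) is separated from the annotated end of Ifnar2 by 567 bp. It had 2 small regions within 1 kb of its near end, chr16:91406173-91406313 and chr16:91406863-91406958. The first had fold enrichments of 6.39 and 6.49 with 13 and 16 reads, and its best summit lay at the same base in both replicates. The other had 5.45 and 4.86 with 11 and 12 reads, close to the fewest listed. By mean rank, 34.1%, the Il10rb start was the lowest of the 10.

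The interferon-gamma receptor genes also differed from each other. Ifngr1 (chr10:19591949-19610229), the ligand-binding chain, had the widest start region of the 10, chr10:19591391-19592066 at 676 bp, with 4 summits in replicate 1 and 3 in replicate 2. Its fold enrichments were 7.45 and 7.48, above those of 38.6% and 34.7% of coding start regions, but its 37 and 52 reads exceeded those of 93.9% and 92.2% of coding start regions. Its local background, worked out as 4.10 and 6.08 reads per position, was above that of 96.3% and 96.4% of them. Ifngr2 (chr16:91547059-91564007), the signal-transducing chain, had a single region 370 to 520 bp before its start, chr16:91546539-91546689, with fold enrichments of 5.35 and 7.80 and 18 and 36 reads. No shared region covered the Ifngr2 start; a peak of replicate 1 alone lay 600 to 671 bp inside the gene and one of replicate 2 alone 1079 to 1202 bp inside it.

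Ifnlr1 (chr4:135686457-135708181), the ligand-binding chain of the type III interferon receptor, had its start region at chr4:135685916-135686203, ending 254 bp before the start. Its fold enrichments were 8.56 and 11.9, with 17 and 29 reads. The sequence between that region and the gene holds the NF-kB pattern GGGNNTTCC, 246 bp before the start and outside the region; 5.82% of all promoters and 7.74% of accessible ones have these letters.

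Among the kinases, Jak1 and Tyk2 had the higher fold enrichments at the start. Jak1 (chr4:101151974-101265282, minus strand), the kinase common to all 3 interferon receptor types, had a region at chr4:101265178-101265487 with fold enrichments of 9.89 and 12.2 and 22 and 43 reads. Tyk2 (chr9:21104068-21131393, minus strand) had one at chr9:21131208-21131507 with 8.14 and 10.9 and 28 and 47 reads. The regions were 310 and 300 bp wide, covered the listed starts, and had a mean rank of 88.7% each.

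Jak2 (chr19:29251803-29313095) and Jak3 (chr8:71676383-71690577) had lower fold enrichments at the start. The Jak2 region, chr19:29251261-29251830, was 570 bp wide and had 5.36 and 4.99, values above those of 7.0% and 4.3% of coding start regions. Its reads, 27 and 35, were above those of 65.8% and 55.9%, and its local background of 4.22 and 6.22 reads was above 96.8% in both replicates. The low fold enrichment at Jak2 stood beside a high local background and read numbers above the median.

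The Jak3 start held 2 regions, both beginning after the annotated start: chr8:71676408-71676585 with 4.87 and 5.15 and 19 and 26 reads, and chr8:71676643-71676788 with 5.81 and 5.36 and 22 and 26 reads. The reads of the latter were above those of 42.9% and 26.9% of coding start regions, and its local background above that of 85.1% and 78.9%. A peak before the start, chr8:71676220-71676352, was listed in replicate 2 alone with a fold enrichment of 4.26 and 22 reads. In replicate 1 the same stretch had no listed peak.

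The 4 kinase promoters are printed for their contrast in composition and for the positions of the motif letters relative to the peaks (RefSeq, GRCm38.p6, 5′ to 3′ in the direction of the gene, ending at the base before the annotated gene). Jak1 is chr4:101265283-101265473 on the minus strand, Tyk2 chr9:21131394-21131525 on the minus strand, Jak2 chr19:29251553-29251802 on the plus strand and Jak3 chr8:71676133-71676382 on the plus strand. The Jak1 and Jak2 stretches lie wholly under their shared regions, as do 114 of the 132 Tyk2 bases, whereas none of the Jak3 stretch does. Capitals mark TGACGTCA, the cyclic AMP response element (CRE), in Jak1, the Sp/KLF letters GGGCGG or their complement CCGCCC in Tyk2, Jak2 and Jak3, and GAAACTGAA in Jak3.
Jak1: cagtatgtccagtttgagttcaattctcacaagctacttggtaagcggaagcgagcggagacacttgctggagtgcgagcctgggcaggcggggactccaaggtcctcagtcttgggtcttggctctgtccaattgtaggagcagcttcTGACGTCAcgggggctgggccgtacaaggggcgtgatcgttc
Tyk2: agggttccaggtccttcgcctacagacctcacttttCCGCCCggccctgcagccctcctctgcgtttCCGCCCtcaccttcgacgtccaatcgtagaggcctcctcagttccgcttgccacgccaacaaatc
Jak2: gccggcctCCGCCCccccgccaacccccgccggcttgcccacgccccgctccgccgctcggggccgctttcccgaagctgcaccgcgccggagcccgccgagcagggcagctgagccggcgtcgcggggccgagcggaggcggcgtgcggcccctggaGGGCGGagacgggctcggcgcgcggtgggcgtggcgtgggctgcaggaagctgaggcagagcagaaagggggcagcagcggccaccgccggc
Jak3: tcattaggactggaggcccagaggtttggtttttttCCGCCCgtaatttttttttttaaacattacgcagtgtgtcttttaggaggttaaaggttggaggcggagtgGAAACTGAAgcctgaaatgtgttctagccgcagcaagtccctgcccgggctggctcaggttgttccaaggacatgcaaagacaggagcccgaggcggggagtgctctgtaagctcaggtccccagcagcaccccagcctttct

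The CRE letters in Jak1 were centred 45 and 39 bp from the summits of replicates 1 and 2. They occur in 1.79% of all promoters and in 3.6% of accessible ones. GAAACTGAA in Jak3 fits the pattern GAAANNGAA of interferon-stimulated response elements, which 8.56% of all promoters and 7.22% of accessible ones hold. It begins 143 bp before the Jak3 start and falls inside the peak of replicate 2 alone.

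GGGCGG, the letters of Sp and KLF factors, was found in the promoters of all 9 genes with a sequence, against 35.7% of all promoters and 67.0% of accessible ones. In Ifnlr1, Ifngr2 and Jak3 every such match lay outside the shared regions. The share of G and C in the 300 bases was 81.0% in Jak2, 74.3% in Ifngr2, 68.3% in Ifnar1 and 64.7% in Jak1, above the median of 61.7% of accessible promoters. It was 61.0% in Ifnlr1, 60.3% in Ifngr1, 58.0% in Tyk2, 57.0% in Ifnar2 and 54.3% in Jak3, below that median but above the 52.7% of all promoters. CpG pairs numbered from 9 in Jak3 to 44 in Jak2, against medians of 22 in accessible and 7 in all promoters. The letters of PU.1 (GAGGAAGT), of an ETS-IRF composite (GGAANNGAA), AP-1 (TGANTCA), RUNX (TGTGGT) and the TATA box (TATAAA) were in none of the 9 windows. In accessible promoters PU.1 letters occur in 3.45%, the composite in 7.09%, AP-1 in 4.36%, RUNX in 11.8% and TATA in 6.01%, and in all promoters in 3.2%, 8.24%, 7.81%, 16.8% and 13.6%. The PU.1 letters and CCGGAAG share the core GGAAG.

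The shared regions in a window numbered 4 for Ifnlr1, 6 for Jak1, 8 for Il10rb, 9 for Ifnar2, 11 for Ifngr1, 12 for Jak2, 13 for Tyk2, 15 for Ifnar1, 16 for Jak3 and 19 for Ifngr2. Of these counts 9 exceed the median of 5 over all coding genes. The lowest of the 9, the 6 of Jak1, exceeds the count of 57.5% of coding genes, and that of Ifngr2 exceeds 99.2%. Windows differ in length, so the counts were also set per 100 kb: Ifngr2 had 16.2, Jak3 14.01 and Ifnar1 11.9, whereas Jak1 had 2.81 and Ifnlr1 3.29, the only values of the 10 below the median gene's 3.35. Neighbouring windows overlap on chromosome 16, and 17 regions were counted for more than 1 gene. Of the 95 regions, 9 lay within 1 kb of the start of a coding gene outside the 10, where either end counted for genes without a listed start. The share over all shared regions is not given here.

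**Figure D2:**
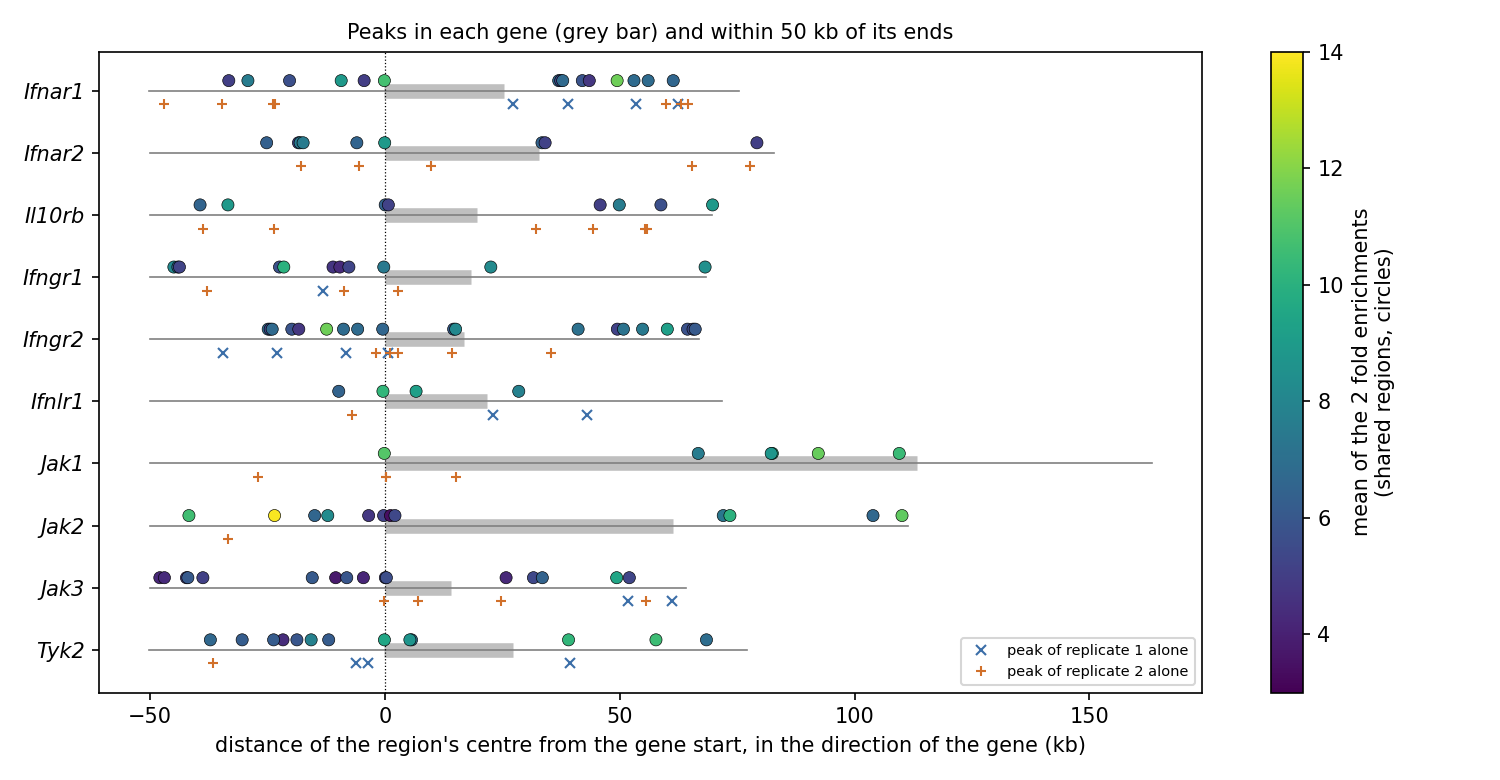
Position of every peak in the windows of the 10 genes, as the distance in kb from the start in the direction of the gene (for Il10rb, in the order of the coordinates); grey bars are the genes, circles are shared regions coloured by the mean of the 2 fold enrichments, and signs below the line are peaks of replicate 1 alone (x) or replicate 2 alone (+). Jak1 has shared regions only at its start and inside the gene, Ifngr1 has 8 of 11 before its start, and the brightest circle, with fold enrichments of 15.7 and 12.1, lies before Jak2.

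At 4 of the 10 genes (Ifnar1, Ifngr1, Ifnlr1 and Jak1) the highest scoring region of the window was the start region. The share over all coding genes with a start region was 33.4%. For the other 6 it lay elsewhere. The highest of all by mean rank was at Jak2, chr19:29228123-29228535, centred 23.5 kb before the start, with fold enrichments of 15.7 and 12.1, 38 and 41 reads, and a mean rank of 97.0%. Its fold enrichment exceeded that of the Jak2 start in both replicates.

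Around Jak2 the other shared regions before the start were centred 41.7, 14.9, 12.1 and 3.4 kb away. The first of them, chr19:29209990-29210214, had fold enrichments of 9.80 and 11.5. Inside Jak2 2 weak regions lay 1.2 and 2.2 kb after the start, with fold enrichments from 3.25 to 5.77, and no shared region was listed in the rest of the gene. Beyond its end lay chr19:29361795-29362018, at the start of Plgrkt, with 12.5 and 10.2, and chr19:29325171-29325372, at the start of Insl6, with 9.05 and 11.0.

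Jak1 had the opposite layout. All 6 of its shared regions touched the gene, and neither flank of 50 kb had any; a peak of replicate 2 alone, with a fold enrichment of 6.59, lay 27.0 kb before the start. The 5 regions beyond the start were centred 66.7, 82.3, 82.5, 92.3 and 109.5 kb into the 113.3 kb gene. The region at 92.3 kb, chr4:101172791-101173091, had fold enrichments of 10.6 and 12.3 with 22 and 35 reads, close to the values of the Jak1 start. That at 109.5 kb, chr4:101155592-101155812, had 7.65 and 13.3 with 12 and 31 reads, the highest fold enrichment of replicate 2 in the windows. Exons and introns were not assigned.

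Tyk2 had 2 adjoining regions 5.7 and 5.3 kb inside the gene, the stronger at chr9:21125740-21126138 with fold enrichments of 7.78 and 9.63 and 26 and 41 reads. Its highest scoring other region, chr9:21091936-21092388 with 10.6 and 9.89, lay at the start of Raver1. In the Tyk2 window 3 regions lay at starts of other genes, namely Fdx2, Raver1 and Cdc37. Jak3 had none inside the gene beyond its start regions. The 9 regions before Jak3, the nearest of them at the start of Unc13a, had fold enrichments from 4.10 to 7.02 in replicate 1 and from 3.38 to 5.45 in replicate 2. Their reads ranged from 16 to 37 in replicate 1 and from 18 to 44 in replicate 2. Their local backgrounds ranged from 1.85 to 6.04 and from 2.87 to 9.32 reads. By fold enrichment the strongest in the Jak3 window was at the start of Fcho1, chr8:71725624-71725860, with 7.74 and 11.2 and 24 and 48 reads.

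Ifngr1 had 8 of its 11 shared regions before its start and 2 beyond its end, and its gene body had none beyond the start region. By mean rank, 78.4%, the highest away from the start was chr10:19570348-19570534, centred 21.5 kb before the start with fold enrichments of 11.1 and 8.91 and 24 reads in each replicate. In replicate 2 alone other regions of the window had higher fold enrichments, up to 11.0 at chr10:19660057-19660203. The replicates differed most in a cluster centred 43.7 to 44.9 kb before the start, where chr10:19547803-19548001 had 11 reads in replicate 1 and 37 in replicate 2, and its fold enrichments were 4.01 and 9.04. That ratio of reads, 3.36, was the highest in the windows. Ifnlr1 had a region 6.7 kb inside the gene, chr4:135693039-135693184, with 10.9 and 7.46 and 18 and 16 reads, and one centred 28.5 kb after the start, chr4:135714903-135715037, with 7.68 and 7.90 and 12 and 17 reads. The first had the higher values in replicate 1 and the other in replicate 2.

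The 4 receptor genes of chromosome 16 lie in the order Ifnar2, Il10rb, Ifnar1 and Ifngr2, and their joined windows cover 291.2 kb (chr16:91322783-91614007). Of 33 shared regions in this stretch, 5 had their centre inside one of the 4 genes, which make up 94.9 kb. The other 28 had it in the 196.3 kb outside them. By this rule the start regions of Ifnar2 and Ifngr2 counted as outside. The share of all shared regions that lie inside genes is not given here, so these counts are not set against it. The interval between Ifnar1 and Ifngr2, 36.5 kb long, held 9 of the 33 shared regions, or 2.46 per 10 kb. Its strongest region, chr16:91534627-91534722, lay 12.4 kb before the Ifngr2 start, with fold enrichments of 12.1 and 11.0, 28 and 36 reads, and its summits at the same base in both replicates. In fold enrichment of replicate 1 it was the highest of the stretch, and in that of replicate 2 it came after the Ifnar1 start.

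The regions at chr16:91522106-91522366, chr16:91522569-91522755 and chr16:91522962-91523209 stood close together in this interval, with fold enrichments from 4.84 to 7.22. Between Il10rb and Ifnar1, 59.2 kb apart, lay 5 shared regions and 4 peaks of replicate 2 alone. The strongest of them, chr16:91475806-91476053, was centred 9.3 kb before the listed Ifnar1 start with 8.90 and 8.88. Before Ifnar2 the strongest pair was chr16:91354624-91354878 and chr16:91355202-91355580, centred 18.0 and 17.4 kb from the start, with fold enrichments from 6.99 to 7.88 and 41 reads each in replicate 2. Inside Ifnar2 and Ifnar1 no shared region was listed beyond the start. A peak of replicate 2 alone, chr16:91382587-91382685, lay inside Ifnar2 with a fold enrichment of 6.15 and 13 reads. Ifngr2 had 2 shared regions near its far end, the stronger at chr16:91561954-91562310 with 7.71 and 8.59.

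**Figure D3:**
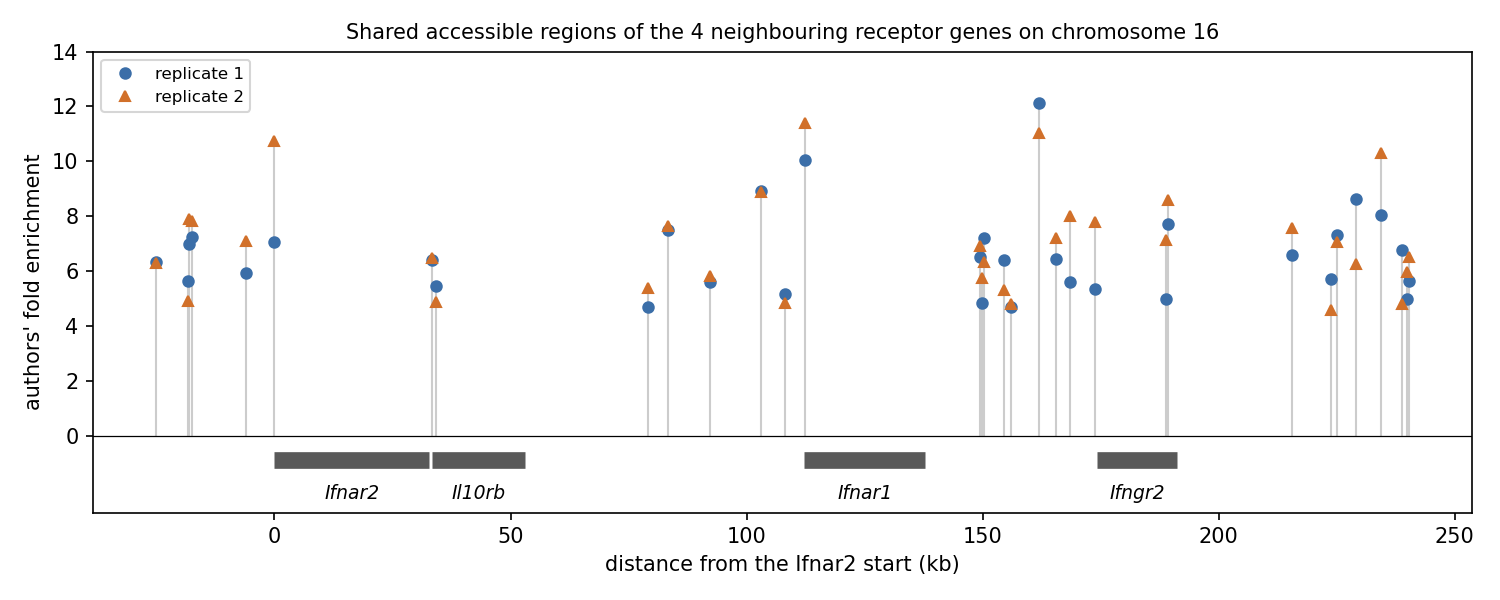
Fold enrichment of the 33 shared regions of the chromosome 16 stretch, by distance in kb from the Ifnar2 start; circles are replicate 1, triangles replicate 2, and dark bars are the 4 genes. In both replicates the Ifnar1 start (10.0 and 11.4) and the region 12.4 kb before Ifngr2 (12.1 and 11.0) stand highest. The Ifnar2 start is high in replicate 2 alone (7.07 and 10.7), and the bodies of Ifnar2 and Ifnar1 hold no shared region beyond their starts.

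Of the peaks in the windows, 96 of 108 in replicate 1 were shared (88.9%, 95% exact binomial interval 81.4 to 94.1), against 90.0% of the whole list, and 96 of 122 in replicate 2 (78.7%, 70.4 to 85.6), against 76.5%. These intervals cover counting error only, and both shares were near those of the whole lists. The 12 peaks of replicate 1 alone had a median of 12.5 reads at the summit, against 19 at its shared peaks, and the 26 of replicate 2 alone had 16.5 against 26. Shared regions of the windows had median fold enrichments of 6.42 and 6.92, below the 7.22 and 7.59 of all shared regions. Their median width was 191 bp, against 198 bp.

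Reads at the best summit were higher in replicate 2 at 82 of the 95 shared regions, equal at 5 and lower at 8. The share with fewer reads in replicate 2 was 5.72% over all shared regions. The median ratio of replicate 2 to replicate 1 was 1.37 in the windows and 1.44 over all shared regions, both below the 1.89 of the genome-wide backgrounds. The lowest ratio, 0.667, was at chr9:21154893-21155008, 23.7 kb before Tyk2, with 18 and 12 reads. The best summits of the replicates were within 20 bp of each other in 54 of the 95 regions. Their median distance was 16 bp in the windows, near the 18 bp over all shared regions.

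**Figure D4:**
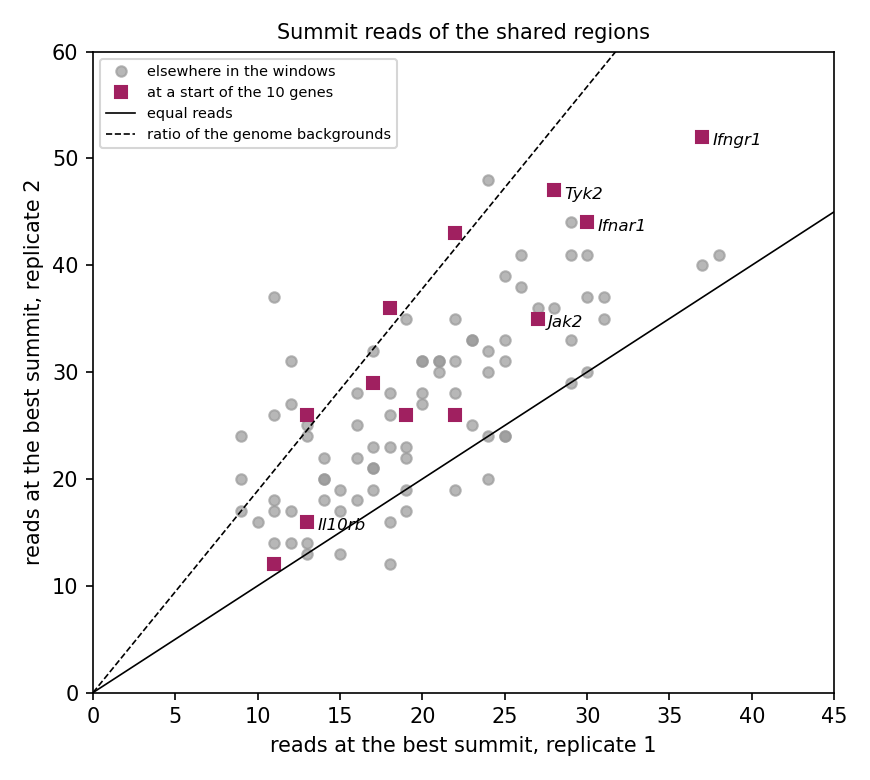
Reads at the best summit of each of the 95 shared regions in replicate 1 (horizontal) and replicate 2 (vertical); squares are regions at a start of the 10 genes, grey circles lie elsewhere, the solid line is equality and the dashed line the ratio of the genome-wide backgrounds, 1.89. Most points lie between the lines, and Ifngr1, at 37 and 52 reads, is the highest square.

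Other genes of the pathway were described by the same measure, a shared region within 1 kb of a start, which 48.3% of all coding genes had. The 7 ligand genes listed, Ifnb1, Ifng, Ifnk, Il10, Il22 and the type III interferon genes Ifnl2 and Ifnl3, had none. The interferon-alpha genes were not in the list. The windows of the 7 held a median of 3 shared regions, from 0 for Ifng and Il22 to 9 for Il10. Partner receptor chains had one in 4 of 12 cases, Il7r, Il10ra, Il6st and Il4ra; Il7r, the IL-7 receptor chain, had fold enrichments of 10.2 and 11.3. All 11 negative regulators had one. The phosphatase gene Ptpn1 had the highest mean rank, 88.5%, with fold enrichments of 12.3 and 10.5. Pias1 was as high in replicate 1 (12.3) and Usp18 higher in replicate 2 (11.2). Il10ra, Ptpn2 and Usp18 had no listed start, so a region at either end of these genes counted.

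Regions lay close to the 50 kb limit on both sides. Those just inside it were 49.97 kb from Il10rb, with 22 and 28 reads, and 49.83 kb from Ifngr1, with 9 and 24. Those just outside were 50.07 kb from Tyk2, with 13 reads in each replicate, and 50.32 kb from Ifnar2, with 22 and 31.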

How the data were processed

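Peak lists of 2 ATAC-seq samples were used. MACS2, HOMER 4.9.1, Picard 2.8.1, BWA 0.7.17 and Trimmomatic are named, with build mm10 but no roles, per the submitters' processing notes; read shifting, duplicate removal and the threshold are not given in the sources used here, and each can change which weak peaks are listed. Peaks were called per sample, since each sample has a list of its own. The deposited fold enrichment is a ratio of summit reads to local background, each with 1 added; the deposited −log10 values (p and q) give the excess over it; the deposited score is −log10 q times 10 as a whole number. Since 1 is added, fold enrichment depends on depth, and the replicates' values are on different scales. The genome-wide background was 0.676 reads in replicate 1 and 1.278 in replicate 2.

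Summits of a peak were joined. Reads and local background at each summit were worked out from fold enrichment and the Poisson p, which came back within 0.002 for 100% of summits. A shared region is a merged stretch of peaks of both replicates that overlap by 1 bp or more. Regions were ranked by −log10 q within each list and the 2 percentiles averaged. Gene ends are from RefSeq (GRCm38.p6, the chromosomes of mm10), and starts from the RefSeq promoter table (17274 coding genes; either gene end for 4357). Promoter bases are printed only outside the annotated gene.

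The members, gene lists and motifs were chosen with earlier results of these data known. All 10 genes are named, each with its best start region and its best region elsewhere. One list of pathway genes is not reported here. With 1 condition in 2 samples, no test was run. Scripts used Python 3.11.15, numpy 2.4.6, scipy 1.17.1, pandas 2.3.3 and matplotlib 3.10.9, and were tested on simulated data.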

Additional observations from a re-analysis of the deposited data

How the results depend on the processing

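All 10 genes had a region at the start with windows of 500 bp and 2 kb, with −log10 q of 5 or more, and with either replicate alone, and 9 did with a reciprocal overlap of 50%. Of all coding genes, 46.3% had one within 500 bp, 51.0% within 2 kb and 46.9% with −log10 q of 5 or more. The share was 50.5% without replicate 1, 49.3% without replicate 2 and 44.7% with the reciprocal overlap. When only the better-scoring 50% of peaks were used, 6 genes had one, against 35.5% of coding genes. The shared regions in the windows then came down from 95 to 38, and 74.5% of the peaks of replicate 1 there were shared. The share over the whole list at that setting is not given here. Windows of 20 kb held 61 regions and windows of 100 kb held 145. Leaving out a replicate put the count of genes at 10 to 10 and that of regions at 108 to 122. The count per gene stayed within 1.5 times in 10 of 10 genes with the reciprocal overlap, 9 with −log10 q of 5 or more, 7 without replicate 1 and 10 without replicate 2, and in 1 of 10 with the better-scoring 50%, 4 with the 20 kb window and 2 with the 100 kb window. The number of reads and the local background limit the lists: no listed summit has fewer than 7 reads in replicate 1 or 9 in replicate 2. No paired analysis was possible because the 2 ATAC-seq samples form a single group.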
